A study of Mus musculus with 6 samples.

Results

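The genes described here encode the translation initiation and elongation factors of the mouse, in primary acinar cells of the pancreas. They were chosen by symbol from the count tables: every symbol that opens with Eif followed by a digit from 1 to 6, or with Eef followed by 1 or 2. The eIF2 kinases (4 Eif2ak genes) were left out, and 0 symbols were pseudogenes. This gave 60 genes of 23282 rows. Of these, 57 passed the filter on low counts and were tested, and 3 (Eif3j1, Eif4e1b and Eef1a2) did not.

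The study compared 3 libraries of an ERRgamma -/- genotype, a conditional knock-out (cKO) of the orphan nuclear receptor ERRgamma (gene Esrrg) in acinar cells, with 3 control libraries labelled wild type, to profile gene expression. All animals were C57BL/6J, and all cells were kept in Waymouth's medium with serum, antibiotics, a trypsin inhibitor and epidermal growth factor. RNA was extracted with Trizol, and Lexogen QuantSeq libraries were made, in which each transcript is counted by a tag near its 3' end. The sources used here do not state the driver of the deletion, the deleted part, age, sex, time in culture or whether each library is from its own animal. The p-values therefore reflect only how far these libraries spread, and that spread may be technical.

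Protein synthesis starts when eIF2 brings the initiator tRNA to the small ribosomal subunit, which eIF1, eIF1A and eIF3 prepare. The eIF4 factors then bring in the mRNA by its cap, and eIF5 and eIF5B complete the ribosome at the start codon. Elongation factors eEF1A and eEF2 add amino acids and move the ribosome along. Acinar cells are known for a very high rate of protein synthesis, most of it digestive enzymes. Cells adjust the process mainly by phosphorylation of eIF2, which eIF2B must recharge, and through mTORC1, which acts on the eIF4E-binding proteins.

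Library totals were 15170173 to 16963782 counts in cKO and 23009041 to 25183465 counts in control. Levels are given as CPM (counts-per-million) of the TMM-scaled library size, a scale centred on the bulk of genes. The scaled sizes, in units of 1e6 counts, were 33.1 to 60.0 in cKO and 7.52 to 8.49 in control. "Rose" and "fell" therefore mean relative to the bulk of genes. Esrrg was counted 0, 9 and 1 times in cKO replicates 1, 2 and 3 and 0 times in each control library, and a 3' tag need not lie in the deleted part, so it checks no label. All 12 acinar markers were detected in both groups and fell, with summed levels of 20060 to 135200 CPM in cKO and 1121000 to 1306000 CPM in control. The control sums exceed the nominal total of the CPM scale, since control libraries have scaled sizes below their totals. Of the markers of other cells, 7 of 8 stellate and fibroblast genes and 8 of 8 macrophage and monocyte genes rose. Their summed levels were 3568 to 5095 and 201 to 451 CPM in cKO, against 723 to 817 and 53.2 to 80.6 CPM in control. Endothelial markers (3 of 6 lower) and islet markers (1 of 6 lower) had 0 genes that rose, and ductal markers had 2 that rose and 4 that fell of 7 tested. The part of these shifts in the results below was not tested. In such bulk samples fewer cells of a type and less RNA per cell cannot be told apart.

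Translation factor genes were lower in cKO, as a group, than the bulk of genes. Of 57 tested, 28 fell and 1, Eif4e3, rose (edgeR quasi-likelihood test, adjusted p under 0.05). Over all 13132 tested genes 44.7% were called, 20.7% lower and 24.0% higher. The median log2 fold change of the factors was -0.56, against 0.10 for all tested genes, and 44 of 57 lay below 0. All 3 cKO libraries lay below all 3 control libraries for 35 of the 57 and above them for 3, where the shares over all genes were 25.4% and 30.7%. The falls were mostly moderate: 13 of the 28 were at least 2-fold. The lowest complex medians belonged to the elongation factors (-1.10) and eIF2B (-0.80). Those nearest to 0 belonged to the eIF4 factors (-0.32), eIF1 and eIF1A (-0.33) and eIF2 (-0.41). In all values for eIF2 as a group, Eif2a and Eif2d, which can act without eIF2, are counted in. The median of eIF1 and eIF1A was -0.17 without control replicate 2, and that of eIF2 was -0.22 without control replicate 1.

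**Figure D1:**
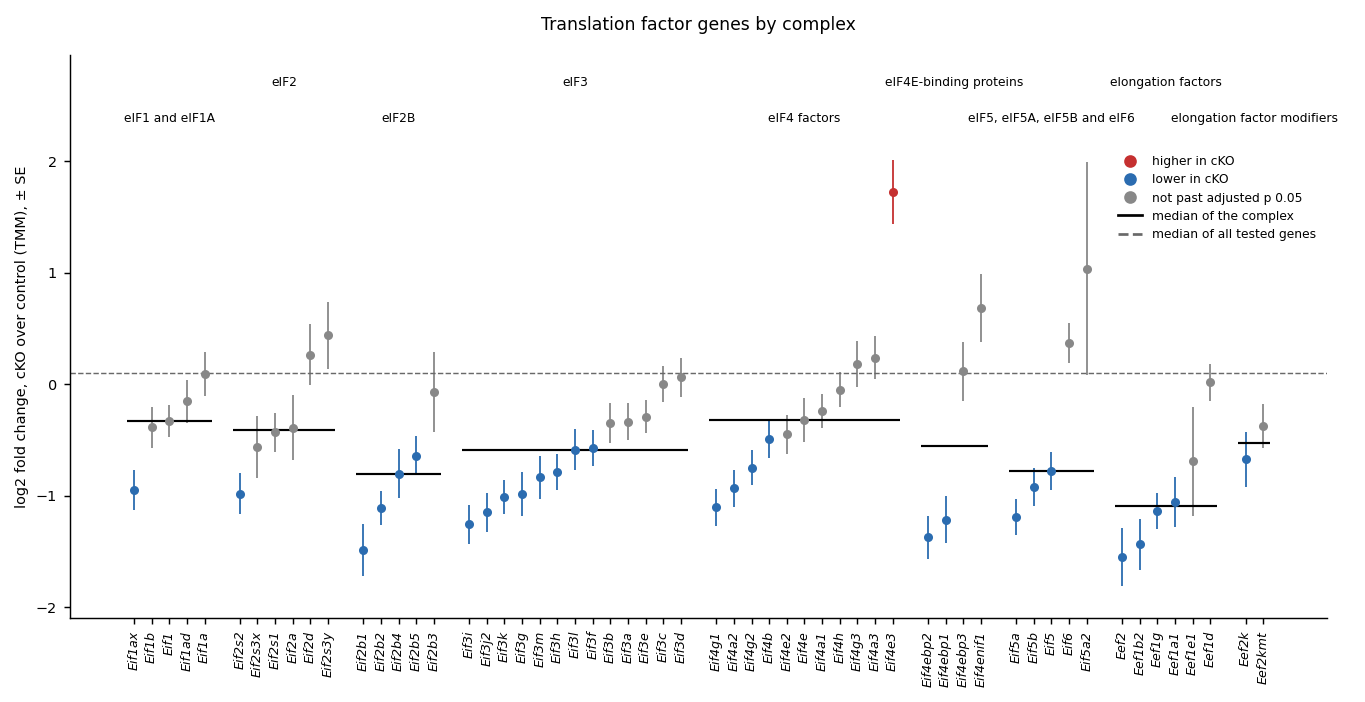
Log2 fold change (cKO over control, TMM scale, ± SE, n = 3 libraries each) of the 57 tested factor genes, grouped by complex. The elongation factor median sits at -1.10, the dashed line at 0.10 marks all tested genes, and Eif4e3 at 1.72 is the single gene called higher.

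On the scale of library totals the direction turns. The 60 genes together took 0.858%, 0.578% and 0.860% of all counts in cKO replicates 1, 2 and 3, against 0.144%, 0.164% and 0.153% in control replicates 1, 2 and 3. The means were 0.766% ± 0.162 in cKO and 0.153% ± 0.0102 in control (SD, n = 3 each; p = 0.1 in an exact 2-sided permutation test, which can go no lower with 3 against 3). Fitted on totals, 57 of 57 tested factors were called higher in cKO and 0 lower, while the median of all tested genes moved up by 3.27 on the log2 scale. Relative to that median, the factors lay at -0.71 on totals and at -0.66 with TMM. A change of scaling moves nearly all genes by a like amount, so this distance was almost fixed in advance. It is no separate support for a fall. As a share of the counts outside the digestive enzymes and other dominant genes, the factors took 1.28% ± 0.137 in cKO and 1.36% ± 0.0838 in control (SD, n = 3 each; exact permutation p = 0.4), and the groups overlapped.

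The cKO libraries did not deviate equally. For 25 of the 28 factors that fell, cKO replicate 2 lay nearest to the control mean, and cKO replicate 3 did so for the remaining 3. This tally was not made over all tested genes, so it does not set the factors apart from other genes. Over all counts, too, cKO replicate 2 stood apart. Its chi-square per degree of freedom was 370 against cKO replicate 1 and 249 against cKO replicate 3, where cKO replicates 1 and 3 gave 47 between them. The median distance of the 28 from the control mean was -1.17, -0.74 and -1.09 on the log2 scale in cKO replicates 1, 2 and 3. Among the cKO libraries, replicate 2 also had the highest summed acinar markers, 135200 CPM against 20060 and 33820 CPM in cKO replicates 1 and 3. It had the lowest sums of stellate and fibroblast markers (3568 CPM against 5095 and 4715 CPM) and of macrophage and monocyte markers (201 CPM against 451 and 380 CPM). The part of any of these in the place of cKO replicate 2 was not tested. Without cKO replicate 2, 32 factors fell and 1 rose.

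Promoter windows (250 bases before to 50 after an annotated start, RefSeq, GRCm38.p6) were at hand for 46 of the 60 genes and were searched on both strands for 4 motifs. A gene counted as matched if any of its windows matched. The ERR response element TNAAGGTCA, to which ERR receptors are known to bind, matched in 0 of 46 genes. It matched in 0.892% of the 9643 tested genes with a window, and at so low a share 0 of 46 says little. CCGGAAG, the core of sites for ETS factors, matched in 16 of 46 (34.8%), against 19.0% of those tested genes and 9.93% of all 27025 genes with a window. It matched in 9 of the 22 factors with a window that fell and in 7 of the 24 others with a window. The cAMP response element TGACGTCA matched in Eef2 alone, and in 3.52% of tested genes. TGATGNAAN, a form of the amino acid response element bound by ATF4, matched in Eif2s3x and Eef2k (4.35%), against 2.88% of tested genes. Each printed site holds 1 motif, and a further CCGGAAG match in Eif3c is not shown. The sites below are shown because the leading gene that fell, Eef2, and several subunits of eIF2B and eIF3 carry them. Each line has 30 bases, 5′ to 3′ on the strand of the gene, with the motif in capitals.
Eef2 (chr10:81176622-81176651, plus strand): aggccgggcgtTGACGTCAgcggtctcttc
Eef1b2 (chr1:63176821-63176850, plus strand): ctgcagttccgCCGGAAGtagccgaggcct
Eif5a (chr11:69920667-69920696, minus strand): cagccgtagcaCCGGAAGtgttccccattg
Eif2b2 (chr12:85219486-85219515, plus strand): cctctctcggcCCGGAAGtgaaacagtgct
Eif2b4 (chr5:31193120-31193149, minus strand): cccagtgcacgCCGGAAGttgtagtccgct
Eif3g (chr9:20898616-20898645, minus strand): cggccgcggcaCCGGAAGcctcttctactc
Eif3m (chr2:105017064-105017093, minus strand): ctgtggctgacCCGGAAGcggttgtgcgta
Eif3l (chr15:79075177-79075206, plus strand): gctgggcgggaCTTCCGGtccggccaagca
Eif4ebp2 (chr10:61452775-61452804, minus strand): gccttcgaccgCTTCCGGtagtcatcgttg
Eif3c (chr7:126566382-126566411, minus strand): aaccttttcctCTTCCGGcgtcgtgcctgt
Eif3d (chr15:77970876-77970905, minus strand): gctgtgacacaCTTCCGGttgtgtctcact
The match stands on the gene's strand in Eef1b2, Eif5a, Eif2b2, Eif2b4, Eif3g and Eif3m and on the other strand in Eif3l, Eif4ebp2, Eif3c and Eif3d. The last 2 of these genes did not fall and the others did. The printed sites were picked largely from genes that fell, so this tally says nothing about the motif. Of all 16 genes with a match, 9 fell.

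Among the initiation factors, eIF2 loads the initiator tRNA, and its beta subunit gene Eif2s2 fell. Eif2s2 had 105, 155 and 119 CPM in cKO replicates 1, 2 and 3, against 238, 261 and 251 CPM in control replicates 1, 2 and 3. Every cKO library lay below every control library, a log2 fold change of -0.98 ± 0.18 (SE; adjusted p = 0.000472 in edgeR). Eif2s1, the alpha subunit that stress kinases phosphorylate, had 12.8, 12.1 and 13.4 CPM in cKO against 18.5, 18.5 and 14.9 CPM in control. Its groups did not overlap either, but it did not pass (-0.43 ± 0.18; adjusted p = 0.0592).

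The gamma subunit of eIF2 has an X-linked and a Y-linked gene. Eif2s3x had 3.99, 6.24 and 4.49 CPM in cKO and 8.77, 7.78 and 5.08 CPM in control, and Eif2s3y had 4.48, 5.85 and 4.92 CPM in cKO and 2.39, 4.24 and 4.57 CPM in control. Both sets overlapped between groups and neither gene passed (-0.56 ± 0.28, adjusted p = 0.115, and 0.44 ± 0.30, adjusted p = 0.261, with edgeR). The factors eIF2A and eIF2D, which can deliver tRNA without eIF2, did not pass: Eif2a was at -0.39 and Eif2d at 0.26 on the log2 scale. The eIF2 group, with Eif2a and Eif2d counted in, thus had 1 gene lower and 0 higher of 6. At 16.7%, its share lower was near the 20.7% of all tested genes. The count lower was 2 without cKO replicate 2, where Eif2s3x passed (-0.75; adjusted p = 0.0414), and 2 without control replicate 3, where Eif2s1 passed (-0.53; adjusted p = 0.0423).

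eIF2B, the exchange factor that recharges eIF2 with GTP, had 4 of 5 subunit genes lower and 0 higher. Over all tested genes 20.7% were lower and 24.0% higher. Eif2b1, the alpha subunit (chromosome 5, 124570214 to 124579131), had 3.59, 5.04 and 6.19 CPM in cKO and 14.6, 13.3 and 13.7 CPM in control. That is the lowest fold change among the initiation factors, -1.49 ± 0.23 (edgeR adjusted p = 0.000115). Eif2b2, the beta subunit, had 17.0, 18.2 and 16.5 CPM in cKO, against 33.4, 39.8 and 38.5 CPM in control (-1.11 ± 0.15; adjusted p = 4.33e-05). These 2 genes and Eif2b4, the delta subunit, form the regulatory part that senses phosphorylated eIF2. Eif2b4 had 7.75, 8.81 and 5.82 CPM in cKO and 14.8, 13.2 and 11.1 CPM in control (-0.80 ± 0.22; adjusted p = 0.00776). The catalytic subunit gene Eif2b5 had 11.8, 13.1 and 11.1 CPM in cKO and 16.4, 19.2 and 20.6 CPM in control (-0.64 ± 0.18; adjusted p = 0.00868). In all 4 genes the groups were apart. The gamma subunit gene Eif2b3 overlapped between groups, at 120, 147 and 203 counts in cKO and 21, 29 and 32 counts in control (-0.07 ± 0.36; adjusted p = 0.887). The calls of Eif2b4 and Eif2b5 were lost without cKO replicate 3 (adjusted p = 0.0573 and 0.0562).

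Among the factors that set the start site, Eif1ax fell. This X-linked gene for eIF1A had 11.4, 15.5 and 11.7 CPM in cKO and 23.3, 25.8 and 25.3 CPM in control (-0.95 ± 0.18; edgeR adjusted p = 0.000562). Its autosomal copy Eif1a had 13.4, 16.8 and 15.9 CPM in cKO and 11.8, 17.4 and 14 CPM in control, with overlapping groups (0.09 ± 0.19; adjusted p = 0.736). Within a library, which needs no scaling, the log2 ratio of Eif1a to Eif1ax averaged 0.26 ± 0.16 in cKO and -0.80 ± 0.21 in control (SD, n = 3 each), higher in 3 of 3 cKO libraries. Eif1, the gatekeeper of start codon choice, had 97.3, 96.9 and 97.4 CPM in cKO and 120, 128 and 119 CPM in control. The groups were apart and it did not pass (-0.33 ± 0.15; adjusted p = 0.0802), and neither did its relative Eif1b (-0.39 ± 0.19), at 18.9, 20.4 and 17.0 CPM in cKO and 20.9, 31.1 and 21.6 CPM in control. Eif1 passed as lower without cKO replicate 2 (-0.32; adjusted p = 0.0486) and with DESeq2 (-0.32; adjusted p = 0.0309). Eif1ad, which encodes a protein related to eIF1A, was at -0.16.

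eIF3, the largest initiation complex and the scaffold on the small subunit, had 8 of 13 tested genes lower and 0 higher, but its subunits split. The shares over all tested genes were 20.7% lower and 24.0% higher. Eif3i, one of the subunits bound to eIF3b, had 21.9, 33.7 and 26.9 CPM in cKO and 71.4, 58.4 and 67.5 CPM in control (-1.26 ± 0.18; edgeR adjusted p = 4.91e-05). Eif3g, which joins the same module, had 15.8, 23.0 and 17.5 CPM in cKO and 44.8, 38.0 and 28.7 CPM in control (-0.99 ± 0.20; adjusted p = 0.000808). Both had every cKO library below every control library. Eif3b itself, which holds that module, was at -0.35 ± 0.18 with overlapping groups (adjusted p = 0.124).

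Eif3k, a subunit known to be dispensable in Caenorhabditis elegans, had 25.5, 28.8 and 25.0 CPM in cKO and 57.6, 54.3 and 48.0 CPM in control (-1.01 ± 0.15; edgeR adjusted p = 8.32e-05). Its partner Eif3l fell by 0.59 ± 0.18 on the log2 scale (adjusted p = 0.0172), a call lost without cKO replicate 3 (0.107) or control replicate 2 (0.0857). Eif3h had 44.2, 60.3 and 45.9 CPM in cKO and 89.2, 89.2 and 81.5 CPM in control (-0.79 ± 0.16; adjusted p = 0.00112). Eif3f (-0.57 ± 0.16) and Eif3m (-0.84 ± 0.19), which adjoin Eif3h in the complex, fell as well (adjusted p = 0.00857 and 0.00266). Eif3j2, a copy of the gene for the loosely bound j subunit, had 10.2, 11.9 and 9.94 CPM in cKO and 23.3, 26.9 and 20.8 CPM in control (-1.15 ± 0.18; adjusted p = 0.000105). Its twin Eif3j1 was counted 7, 0 and 4 times in cKO and 0 times in each control library, and the division of reads between these similar copies is uncertain.

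The remaining tested eIF3 genes, Eif3a, Eif3c, Eif3d and Eif3e, did not pass. Eif3a, the scaffold subunit, had 120, 148 and 116 CPM in cKO and 155, 156 and 175 CPM in control, apart but with adjusted p = 0.111 in edgeR (-0.34 ± 0.16). Eif3c, its partner, had 76.6, 79.5 and 77.1 CPM in cKO and 64.0, 76.1 and 93.1 CPM in control, with all cKO values inside the control range (0.00 ± 0.16; adjusted p = 0.999). Eif3d, which can bind caps itself, was at 0.06 ± 0.17 and Eif3e at -0.29 ± 0.15. Without cKO replicate 2, Eif3a (-0.44; adjusted p = 0.00774) and Eif3b (-0.47; adjusted p = 0.0342) passed as lower. Eif3c and Eif3d, at 0.00 and 0.06, carry CCGGAAG matches like Eif3g, Eif3l and Eif3m, which fell.

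The eIF4 factors went both ways. Eif4g1, the main scaffold between cap and ribosome (chromosome 16, 20672720 to 20692883), had 54.1, 73.2 and 55.6 CPM in cKO and 132, 138 and 123 CPM in control (-1.11 ± 0.17; edgeR adjusted p = 8e-05). Eif4g2, a relative that does not bind eIF4E, had 107, 116 and 123 CPM in cKO and 184, 188 and 209 CPM in control (-0.75 ± 0.16; adjusted p = 0.0014). Eif4g3, the third scaffold, had 30.1, 20.5 and 33.4 CPM in cKO and 21.8, 30.9 and 21.3 CPM in control. It overlapped between groups and did not pass (0.18 ± 0.21; adjusted p = 0.5). The log2 ratio of Eif4g3 to Eif4g1 within a library was -1.14 ± 0.61 in cKO and -2.43 ± 0.23 in control (SD, n = 3 each), higher in 3 of 3 cKO libraries.

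Of the helicase genes, Eif4a2 had 18.7, 24.4 and 20.9 CPM in cKO and 36.7, 46.3 and 39.1 CPM in control (-0.93 ± 0.17; edgeR adjusted p = 0.000327). Eif4a1, its close relative, had 26.1, 30.2 and 29.8 CPM in cKO and 35.8, 32.2 and 33.8 CPM in control, apart but not past the threshold (-0.24 ± 0.15; adjusted p = 0.212). The within-library log2 ratio of Eif4a2 to Eif4a1 was below 0 in all cKO libraries (-0.43 ± 0.11) and above 0 in all control libraries (0.26 ± 0.25; SD, n = 3 each). Eif4a3, the helicase of the exon junction complex, was at 0.24 ± 0.19 with overlapping groups. Among the helpers of the helicase, Eif4b had 35.4, 44.6 and 35.2 CPM in cKO and 57.7, 58.3 and 46.5 CPM in control (-0.50 ± 0.16; adjusted p = 0.0222). Eif4b no longer passed when any 1 of cKO replicates 1 and 3 and control replicates 1 and 2 was left out (adjusted p = 0.0634 to 0.112). Eif4h was at -0.05 ± 0.16.

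Cap-binding proteins include the single factor gene that rose. Eif4e3, an atypical relative of eIF4E (chromosome 6, 99621879 to 99692873), had 13.0, 9.02 and 9.72 CPM in cKO and 2.66, 4.59 and 2.29 CPM in control. Its raw counts were 770, 299 and 583 in cKO and 20, 39 and 18 in control, and every cKO library lay above every control library. This is a log2 fold change of 1.72 ± 0.29, or 3.30-fold (adjusted p = 0.00021 in edgeR). The main cap-binding gene Eif4e had 11.9, 13.3 and 14.7 CPM in cKO and 15.3, 13.8 and 21.0 CPM in control, which overlap (-0.32 ± 0.20; adjusted p = 0.202). Eif4e2, which competes for caps and represses translation, had 14.8, 12.5 and 12 CPM in cKO and 16.2, 18.3 and 19.3 CPM in control (-0.45 ± 0.18; adjusted p = 0.0504), and passed as lower without cKO replicate 1 (-0.54; adjusted p = 0.0434). Eif4e3 was the more unequal member of the family also within libraries, with a log2 ratio to Eif4e of -0.35 ± 0.40 in cKO and -2.41 ± 0.80 in control (SD, n = 3 each). Beside this rise, stellate and macrophage markers were higher in the same cKO libraries, and their part in it was not tested. Eif4e1b, known from oocytes, had 0 counts in all 6 libraries, which allows up to 0.0905 CPM in a cKO library and 0.399 CPM in a control library.

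Both main inhibitors of eIF4E fell. Eif4ebp1, the mTORC1 target that blocks eIF4E when unphosphorylated, had 20.5, 38.3 and 27.9 CPM in cKO and 67.1, 58.1 and 76.0 CPM in control (-1.22 ± 0.21; edgeR adjusted p = 0.000291). Eif4ebp2, its relative, had 6.92, 8.93 and 7.34 CPM in cKO and 16.8, 21.8 and 21.5 CPM in control (-1.38 ± 0.19; adjusted p = 4.81e-05). In both, all cKO libraries were below all control libraries. Their ratio to each other overlapped between groups, with a log2 mean of -1.86 ± 0.27 in cKO and -1.74 ± 0.30 in control (Eif4ebp2 over Eif4ebp1; SD, n = 3 each). Eif4ebp3 did not pass (0.11 ± 0.26), nor did Eif4enif1, a transporter of eIF4E into the nucleus (0.68 ± 0.31; adjusted p = 0.0843). The cKO libraries of Eif4enif1, at 4.59 to 5.19 CPM, all lay above the control libraries, at 2.29 to 4.01 CPM, and it passed as higher without control replicate 2 (0.96; adjusted p = 0.036).

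**Figure D2:**
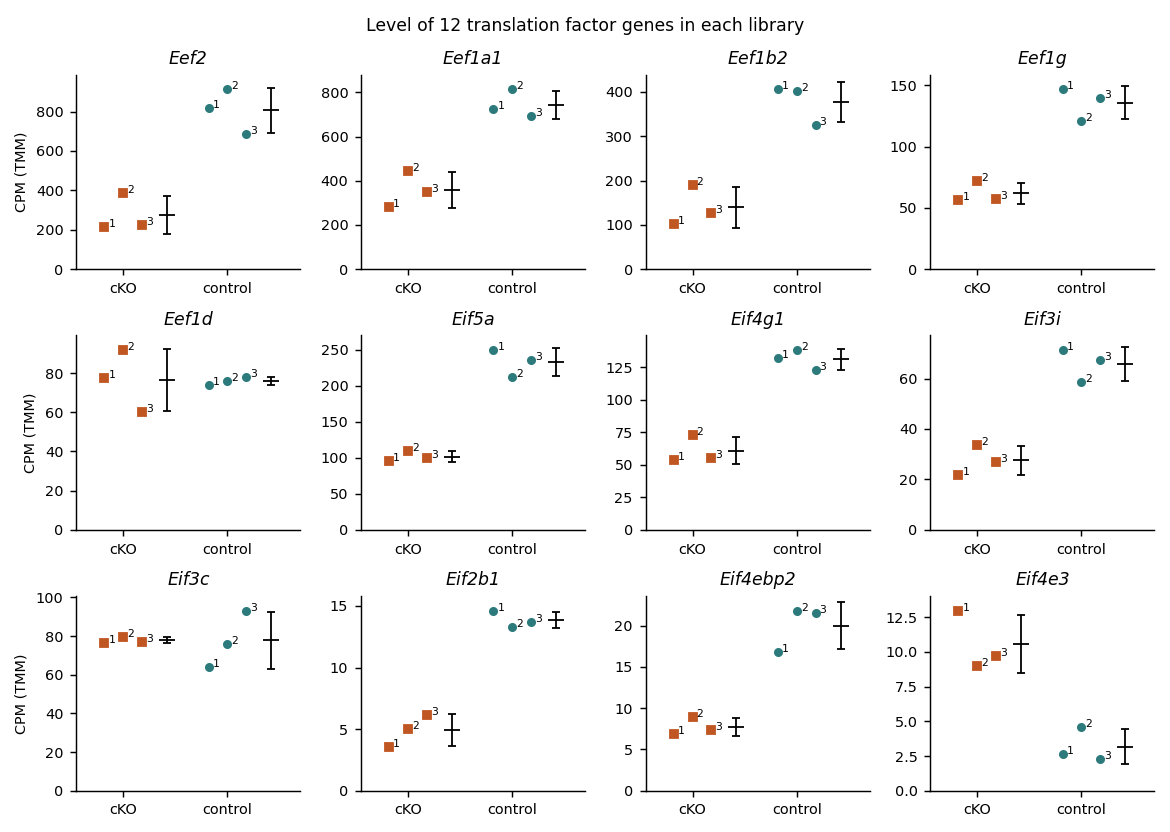
CPM (TMM scale, axes from 0) of 12 factor genes in each library, with the replicate number beside each point and the mean ± SD (n = 3) to the right of each group. For Eef2, Eef1a1, Eef1b2, Eef1g, Eif5a, Eif4g1, Eif3i, Eif2b1 and Eif4ebp2 every cKO library is below every control library, Eif4e3 is above, and Eef1d and Eif3c overlap.

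Of 5 genes for eIF5, eIF5A, eIF5B and eIF6, which act in the last initiation steps and after, 3 fell and 0 rose. Among all tested genes 20.7% fell and 24.0% rose. Eif5, which triggers GTP hydrolysis by eIF2, had 52.0, 76.8 and 58.5 CPM in cKO and 103, 109 and 110 CPM in control (-0.78 ± 0.17; edgeR adjusted p = 0.00167). Eif5b, which joins the ribosomal subunits, had 95.2, 119 and 92.2 CPM in cKO and 190, 181 and 211 CPM in control (-0.92 ± 0.17; adjusted p = 0.000417). Eif5a, the hypusine-bearing factor that helps peptide bonds form at difficult sites (chromosome 11, 69916712 to 69921958), had 95.9, 110 and 99.3 CPM in cKO and 250, 211 and 236 CPM in control (-1.19 ± 0.16; adjusted p = 3.88e-05). All 3 genes had groups that were apart. Its relative Eif5a2 was near the limit of detection, with 13, 22 and 26 counts in cKO and 1, 4 and 0 in control, and did not pass (1.03 ± 0.95; adjusted p = 0.405). Leaving out 1 library moved the value of Eif5a2 between 0.49 (without control replicate 3) and 2.67 (without control replicate 2), and it passed in none of these fits. Eif6, which keeps the large subunit apart from the small one, lay at 17.9 to 23.0 CPM in cKO and 14 to 17.4 CPM in control, apart but not passed (0.37 ± 0.18; adjusted p = 0.105).

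Elongation factor genes had the lowest median of any complex here, with 4 of 6 tested genes lower and 0 higher. Over all tested genes the shares were 20.7% lower and 24.0% higher. Eef2, which moves the ribosome by a codon (chromosome 10, 81176631 to 81182509), had 212, 388 and 226 CPM in cKO and 817, 915 and 688 CPM in control. Its fold change, -1.55 ± 0.26 (edgeR adjusted p = 0.00019), was the lowest of all 57 factors, and its site with TGACGTCA is the one printed first. Eef1a1, which carries aminoacyl-tRNA to the ribosome (chromosome 9, 78478453 to 78481724), had 282, 444 and 350 CPM in cKO and 725, 816 and 692 CPM in control (-1.05 ± 0.22; adjusted p = 0.00141). In both genes cKO replicate 2 was the highest cKO library and still below each control library.

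The exchange factor of eEF1A has 3 subunit genes, and they did not move alike. Eef1b2, the catalytic alpha subunit (chromosome 1, 63176831 to 63180486), had 101, 191 and 127 CPM in cKO and 407, 402 and 325 CPM in control (-1.44 ± 0.23; edgeR adjusted p = 0.000128). Eef1g, the gamma subunit (chromosome 19, 8967041 to 8978180), had 56.5, 71.6 and 57.1 CPM in cKO and 147, 121 and 139 CPM in control (-1.14 ± 0.16; adjusted p = 5.72e-05). Eef1d, the delta subunit with its own exchange activity, had 77.7, 91.9 and 60.3 CPM in cKO and 73.8, 75.9 and 77.9 CPM in control. Its cKO libraries lay on both sides of the control libraries (0.01 ± 0.17; adjusted p = 0.955). Eef1e1, whose product sits in the tRNA synthetase complex, had 71, 28 and 107 counts in cKO and 17, 24 and 9 in control and did not pass (-0.69 ± 0.49; adjusted p = 0.267). Eef1a2, the form known from muscle and neurons, was counted 0, 2 and 1 times in cKO and 0 times in each control library.

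Among genes that modify elongation factors, Eef2k, the kinase that inhibits eEF2, had 4.25, 4.10 and 4.44 CPM in cKO and 5.85, 6.83 and 7.75 CPM in control (-0.68 ± 0.25; edgeR adjusted p = 0.0365). This call was lost with the replicate number as a block (0.0676), with no filter (0.0732) and without any 1 library other than control replicate 1 (0.0719 to 0.112). Eef2kmt, a methyltransferase of eEF2, had 15.9, 25.5 and 18.2 CPM in cKO and 24.2, 30.2 and 22.7 CPM in control, which overlap (-0.37 ± 0.20; adjusted p = 0.137). Without cKO replicate 2 Eef2kmt passed as lower (-0.58; adjusted p = 0.0101).

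The make-up of the factor pool, which needs no scaling, differed as well. Elongation factors took 33.3%, 40.1% and 35.0% of the counts of all 60 genes in cKO, against 46.6%, 48.0% and 43.1% in control. The means were 36.1% ± 3.53 in cKO and 45.9% ± 2.53 in control (SD, n = 3 each), lower in 3 of 3 cKO libraries (exact 2-sided permutation p = 0.1, the smallest possible). Eef2 accounted for most of that difference, with 10.8% ± 2.0 in cKO and 17.2% ± 1.73 in control. eIF3 took 19.9% ± 0.726 in cKO and 15.3% ± 0.698 in control, and the eIF4 factors 15.2% ± 1.85 in cKO and 12% ± 0.465 in control, both higher in 3 of 3 cKO libraries. The shares of eIF2 (6.32% in cKO, 6.17% in control) and eIF2B (1.81% in cKO, 1.85% in control) overlapped between groups. Because the shares add up to the whole, a lower share of one complex raises the others. Genes such as Eef1a1 and Eif4a1 have many processed copies in the genome, so their levels, and their shares here, are uncertain.

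**Figure D3:**
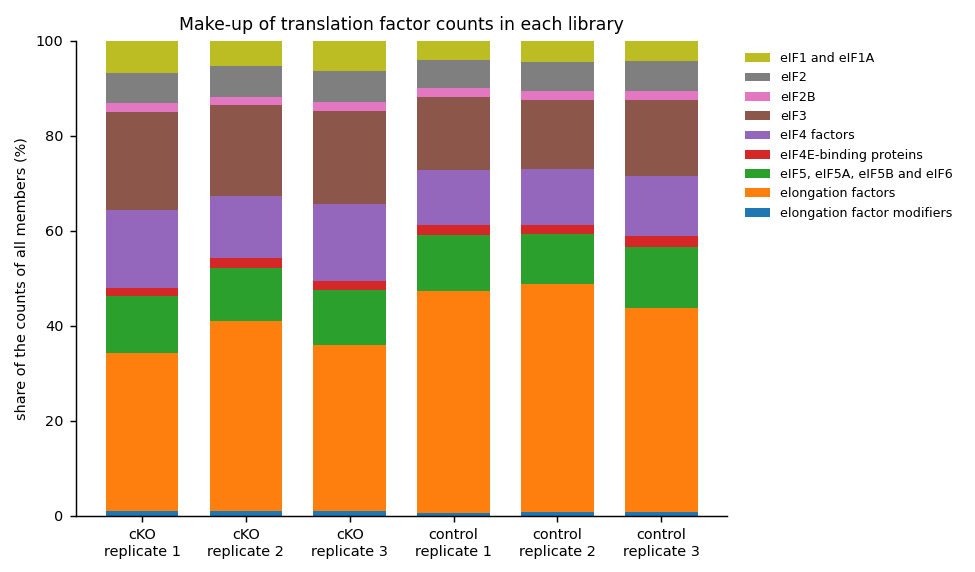
Stacked bars of the share (%) of all factor counts taken by each complex in each of the 6 libraries. Elongation factors span 33.3% to 40.1% in the cKO libraries and 43.1% to 48.0% in the control libraries.

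Related genes were compared within libraries in 10 pairs, as the log2 ratio of their counts. The groups were apart in 5 pairs: Eif4e3 to Eif4e (difference of cKO minus control 2.06), Eif4g3 to Eif4g1 (1.29), Eif1a to Eif1ax (1.06), Eif2s3y to Eif2s3x (1.02) and Eif4a2 to Eif4a1 (-0.69). Each had an exact 2-sided permutation p of 0.1, the smallest possible with 3 against 3, and 0.2 after Benjamini-Hochberg adjustment over the 10 pairs, so none passes. The ratio of Eif2s3y to Eif2s3x averaged 0.07 ± 0.14 in cKO and -0.95 ± 0.85 in control (SD, n = 3 each), and its difference was 0.58 without control replicate 1. In the pairs Eif4e2 to Eif4e, Eif4ebp2 to Eif4ebp1 and Eif1b to Eif1 the groups overlapped and the differences were -0.15, -0.12 and -0.04. The groups also overlapped for Eif4g2 to Eif4g1 (0.37) and Eif5a2 to Eif5a (2.31), where control replicate 3 had 0 counts of Eif5a2.

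**Figure D4:**
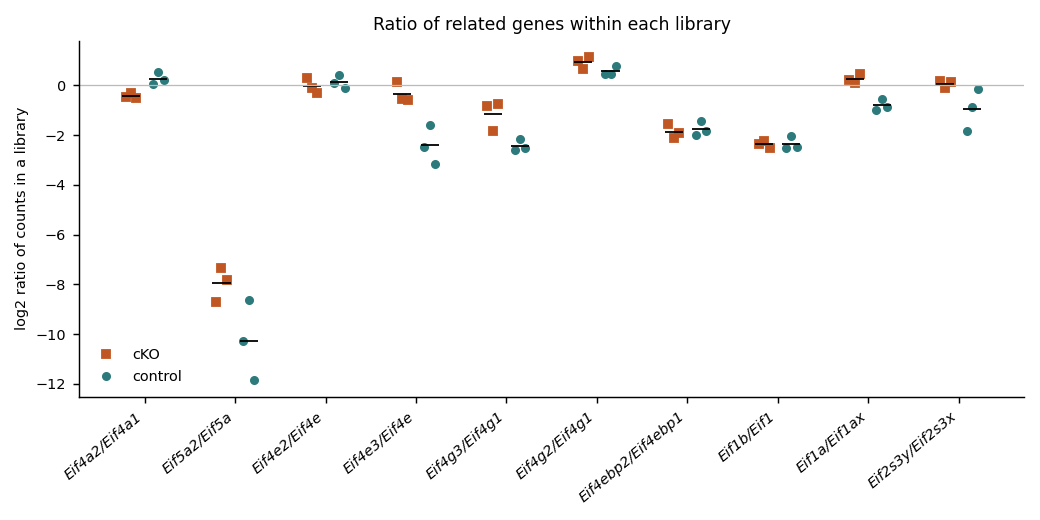
Log2 ratio of the counts of 2 related genes (plus 0.5 each) in each cKO and control library, with group means as bars. The groups are apart for Eif4a2/Eif4a1, Eif4e3/Eif4e, Eif4g3/Eif4g1, Eif1a/Eif1ax and Eif2s3y/Eif2s3x.

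Genes that act on these factors, or beside them, were taken from 5 lists of 67 genes. Of 66 tested, 9 rose and 22 fell, where 44.7% of all tested genes were called (24.0% higher, 20.7% lower). The number called in either direction over the 5 lists is thus near that background. The directions differ from it, since more of these genes fell than rose. In the list of eIF2 kinases, phosphatases and the ATF4 arm, 5 of 13 rose and 4 fell (median -0.36). The count that fell was 2 without cKO replicate 1, cKO replicate 3 or control replicate 2. The kinase gene of the endoplasmic reticulum, Eif2ak3 (PERK), fell by 1.26 ± 0.21 on the log2 scale, and the kinase activated by double-stranded RNA, Eif2ak2 (PKR), rose by 2.29 ± 0.37 (edgeR adjusted p = 0.000194 and 0.000162). Eif2ak2 had 390, 150 and 361 counts in cKO and 5, 14 and 9 in control. The 2 regulatory subunits that direct phosphatase to eIF2 went opposite ways. Ppp1r15b, the constitutive one, had 15.4, 17.8 and 16.8 CPM in cKO and 43.5, 38.8 and 41.0 CPM in control (-1.30 ± 0.15; adjusted p = 1.04e-05), and the stress-induced Ppp1r15a rose by 1.27 ± 0.16 (2.36e-05).

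Downstream of eIF2, Ddit3 (CHOP) had 70.3, 113 and 93.3 CPM in cKO and 27.0, 20.3 and 18.2 CPM in control (2.08 ± 0.21; edgeR adjusted p = 2.52e-06). Trib3, a pseudokinase that ATF4 and CHOP induce, had 11.3, 22.3 and 19.8 CPM in cKO and 1.86, 3.30 and 1.14 CPM in control (3.06 ± 0.36; adjusted p = 1.57e-05). In both genes every cKO library was above every control library. The mRNA of Atf4 itself, which is controlled mainly at translation, fell by 0.56 ± 0.18 (adjusted p = 0.0184). Atf4 no longer passed when any 1 of cKO replicates 1 and 3 and control replicates 2 and 3 was left out (0.0649 to 0.0971). Impact, an inhibitor of the kinase GCN2, rose by 1.54 ± 0.38, and Ppp1cb, a catalytic phosphatase subunit, fell by 0.59 ± 0.19. Ppp1cb no longer passed when any 1 of cKO replicates 1 and 3 and control replicates 1 and 2 was left out (0.0626 to 0.136).

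In the list of mTORC1 and MNK control of initiation, 8 of 18 genes fell and 1 rose (median -0.65). The shares over all tested genes were 20.7% lower and 24.0% higher. Larp1, which binds the oligopyrimidine start of ribosomal protein and elongation factor mRNAs, had 45.4, 75.8 and 62.0 CPM in cKO and 214, 225 and 236 CPM in control (-1.88 ± 0.19; edgeR adjusted p = 3.36e-06). Deptor, an inhibitor within mTOR complexes, had 29.0, 52.5 and 34.0 CPM in cKO and 150, 149 and 146 CPM in control (-1.95 ± 0.20; adjusted p = 4.22e-06). Rps6kb1, the S6 kinase gene, had 14.4, 15.8 and 15 CPM in cKO and 38.1, 40.3 and 50.3 CPM in control (-1.51 ± 0.16; adjusted p = 4.83e-06). The groups were well apart in these 3 genes. The MNK kinases that phosphorylate eIF4E moved oppositely, Mknk1 at -2.20 ± 0.26 and Mknk2 at 1.46 ± 0.25 (adjusted p = 2.55e-05 and 0.000232). Pdcd4, an inhibitor of eIF4A, fell as well (20.7 ± 6.29 CPM in cKO and 58.2 ± 5.23 CPM in control, SD, n = 3 each), and so did Rheb, the activator of mTORC1 (-1.19 ± 0.20). Rps6 and Larp4 fell too, by 1.26 and 0.92. Mtor and Rptor did not pass (-0.45 and -0.19).

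Around the poly(A) tail and the eIF4E partners, 3 of 11 tested genes rose and 2 fell (median -0.12), near the shares over all tested genes (24.0% higher, 20.7% lower). Paip2b, an inhibitor of poly(A)-binding protein, had 2.58, 5.01 and 3.67 CPM in cKO and 15, 14.1 and 13.0 CPM in control (-1.91 ± 0.25; edgeR adjusted p = 2.87e-05). Pabpc4 had 7.76, 14.2 and 8.96 CPM in cKO and 25.4, 32.2 and 22.6 CPM in control (-1.38 ± 0.23; adjusted p = 0.000237). The main poly(A)-binding gene Pabpc1 rose by 0.43 ± 0.16 (adjusted p = 0.0375), a call lost with the replicate block (0.0878) and without any 1 library other than cKO replicate 2 (0.0869 to 0.139). Gigyf1, a partner of Eif4e2, had 11.9, 9.68 and 9.61 CPM in cKO and 4.79, 5.07 and 5.33 CPM in control (1.04 ± 0.22; adjusted p = 0.00152). Cyfip1, which can bind eIF4E, rose by 0.81 ± 0.20.

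Of 12 termination, recycling and rescue genes, 7 were called lower and 0 higher (median -0.68). Over all tested genes 20.7% were lower and 24.0% higher. Gspt1, the release factor eRF3a, had 12.6, 16.6 and 15.7 CPM in cKO and 39.1, 36.0 and 43.1 CPM in control (-1.40 ± 0.17; edgeR adjusted p = 1.17e-05). The rescue factor gene Pelo had 5.84, 7.42 and 6.04 CPM in cKO and 15.4, 17.4 and 16.3 CPM in control (-1.35 ± 0.19; adjusted p = 5.57e-05). Its partner Hbs1l had 10.4, 14.5 and 11.4 CPM in cKO and 20.7, 21.9 and 32.5 CPM in control (-1.05 ± 0.21; adjusted p = 0.000784). In these genes the groups did not overlap. Abce1, the recycling ATPase, was lower by a log2 fold change of -0.94 ± 0.23, and Denr, Gtpbp1 and Abcf1 were at -0.82, -0.68 and -0.68, all called. The release factor gene Etf1 did not pass (-0.32). Of 12 genes for hypusine, diphthamide and selenocysteine, 1 fell and 0 rose (median -0.29), both below those shares. That gene, Dohh, encodes the hydroxylase that completes hypusine on eIF5A. It had 5.93, 7.24 and 7.04 CPM in cKO and 21.3, 19.1 and 12.1 CPM in control (-1.38 ± 0.22; adjusted p = 0.000158).

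**Figure D5:**
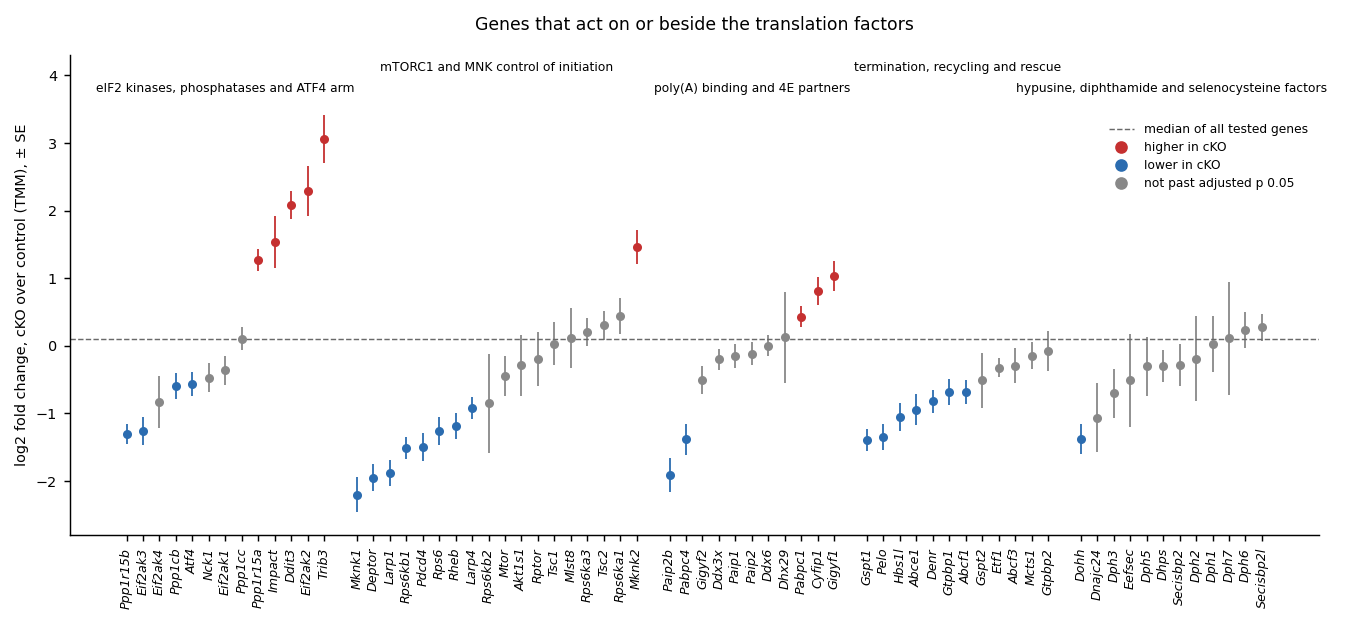
Log2 fold change (cKO over control, TMM scale, ± SE, n = 3 libraries each) of 66 genes of 5 lists that act on or beside the factors. Trib3 at 3.06 and Eif2ak2 at 2.29 are highest, and Mknk1 at -2.20 and Deptor at -1.95 are lowest.

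Set beside the factors from the same fit, cytosolic ribosomal protein genes had 77 of 81 tested genes lower and 0 higher, with a median of -1.11. The elongation factors, with 4 of 6 lower and a median of -1.10, lay at a like value. Cytosolic tRNA synthetase genes had 11 of 20 lower and 1 higher, with a median of -0.57, close to the -0.59 of eIF3. No test was made between these groups. For comparison, 20.7% of all tested genes were lower and 24.0% higher.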

How the data were processed

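The authors deposited raw counts per gene symbol, 1 table per library. The submitters' processing notes name edgeR, Bowtie2, GRCm38 and mm10, with no version or role. No source used here states the counter, annotation or strand setting. Without them, reads of near-identical copies or overlapping genes cannot be assigned with certainty, and PCR copies are counted, so limits for 0 counts (3 counts) cover counting error only.

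Counts were tested with edgeR 4.0.16 in R 4.3.3 (glmQLFit, robust, and glmQLFTest), TMM factors and filterByExpr (minimum count 10, total 15), with Benjamini-Hochberg adjustment over all 13132 genes. The SE is the log2 fold change over the square root of F. The fit was tested on simulated data in which few genes changed, evenly up and down. Far more genes were called in these libraries, so that run does not test whether the TMM scale holds for them. Ratios and shares were tested with exact permutation. Alternatives were library totals, DESeq2 1.42.0, TMM without dominant genes, no filter, the replicate number as a block, and leaving out each library. The members and lists were chosen with earlier results of these data known. Library values are given for up to 5 called genes per complex with the smallest p, its most abundant gene, both genes of each pair, and up to 3 per list. The make-up of counts, the ribosomal and synthetase lists, the motifs and coordinates (RefSeq, GRCm38.p6) were added after the data were seen.

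Replicates of a group differed by more than sampling noise. The chi-square per degree of freedom was 14.6 to 31.3 between control libraries and 47 between cKO replicates 1 and 3. It was 249 and 370 for the pairs with cKO replicate 2.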

Additional observations from a re-analysis of the deposited data

How the results depend on the processing

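Fitted on library totals, 12654 genes were called higher and 53 lower, with 57 and 0 of the factors and 66 and 0 of the related pathway genes. The complex medians became 2.94 for eIF1 and eIF1A, 2.88 for eIF2, 2.43 for eIF2B, 2.61 for eIF3, 2.94 for the eIF4 factors, 2.67 for the eIF4E-binding proteins, 2.42 for eIF5 to eIF6, 2.12 for elongation factors, 2.71 for their modifiers and 2.66 for all members. Fold changes that turned positive there were Eif1 2.94, Eif1ad 3.12, Eif1ax 2.27, Eif1b 2.86, Eif2a 2.90, Eif2s1 2.86, Eif2s2 2.22, Eif2s3x 2.65, Eif2b1 1.77, Eif2b2 2.14, Eif2b3 3.09, Eif2b4 2.43, Eif2b5 2.60, Eif3a 2.89, Eif3b 2.87, Eif3e 2.96, Eif3f 2.66, Eif3g 2.23, Eif3h 2.43, Eif3i 1.95, Eif3j2 2.09, Eif3k 2.24, Eif3l 2.62, Eif3m 2.37, Eif4a1 3.02, Eif4a2 2.29, Eif4b 2.74, Eif4e 2.94, Eif4e2 2.83, Eif4g1 2.11, Eif4g2 2.52, Eif4h 3.25, Eif4ebp1 1.96, Eif4ebp2 1.85, Eif5 2.42, Eif5a 2.06, Eif5b 2.30, Eef1a1 2.15, Eef1b2 1.73, Eef1e1 2.64, Eef1g 2.10, Eef2 1.60, Eef2k 2.60, Eef2kmt 2.82, and among pathway genes Eif2ak3 1.91, Ppp1r15b 1.95, Ppp1cb 2.64, Atf4 2.65, Deptor 1.22, Rheb 2.06, Rps6kb1 1.74, Rps6 1.92, Mknk1 0.95, Pdcd4 1.68, Larp1 1.32, Larp4 2.32, Pabpc4 1.79, Paip2b 1.27, Gspt1 1.84, Abce1 2.25, Denr 2.44, Pelo 1.88, Hbs1l 2.15, Gtpbp1 2.65, Abcf1 2.56, Dohh 1.88. That scale does not discount the enzyme counts, and the median of all tested genes moved up by 3.27 on it. The part of the enzyme counts in this shift was not tested. The summed share, 0.612 points higher on totals, was -0.0801 points outside dominant genes. Leaving out 1 library gave 23 to 32 factors lower and 1 to 2 higher; the added one, without control replicate 2, was Eif4enif1. Signs of genes near 0 turned in these fits, with ranges of -0.030 to 0.26 for Eif1a, -0.33 to 0.19 for Eif2b3, -0.12 to 0.16 for Eif3c, -0.12 to 0.18 for Eif3d, -0.11 to 0.020 for Eif4h, -0.047 to 0.28 for Eif4ebp3 and -0.12 to 0.17 for Eef1d; the pair differences ranged from -0.27 to 0.046 for Eif4ebp2 to Eif4ebp1 and from -0.12 to 0.11 for Eif1b to Eif1. DESeq2 called 29 factors lower and 1 higher, 28 of the lower ones shared with edgeR and Eif1 added (-0.32; adjusted p = 0.0309); TMM without dominant genes called the same 28 and 1. The labels do not say whether replicate numbers pair the samples. The correlations of deviations of same-numbered libraries were 0.0142, -0.0295 and -0.00774, and with 3 libraries per group these cannot decide it. In the replicate block fit 27 factors fell and 1 rose, Eef2k lost its call, and Eef1d was at -0.0058. The small scaled sizes of the control libraries limit genes of few counts such as Eif5a2, Eef1e1 and Eif2b3.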
